A study of Mus musculus with 23 samples.

Results

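Ribosome production was followed here through 48 genes: the transcription factor Myc, RNA polymerase I subunits and their initiation factors, nucleolar proteins, the proteins of small nucleolar ribonucleoproteins (snoRNPs), and factors that process ribosomal RNA (rRNA) and assemble both ribosomal subunits. They were chosen by symbol for these known roles, and 48 of 48 symbols were found among the 24917 gene loci counted. These genes and the other gene lists used below were chosen with earlier results of these data known. Their shares beside those of all genes are therefore descriptions only. By role they were 1 transcription factor, 7 nucleolar proteins, 4 box C/D and 4 box H/ACA snoRNP proteins, 6 genes of RNA polymerase I transcription, 14 small subunit factors and 12 large subunit factors.

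Colonic epithelium, detached with EDTA from male C57BL/6 mice that entered the diets when 6 weeks old, was profiled by RNA-seq after removal of rRNA, so the mature rRNA that these factors make was not measured. The methods of the study give the strain as C57BL/6J. The LF mice ate a 10% fat diet for 43 weeks, the HF mice ate a 60% fat diet for 43 weeks, and the HFLF mice ate the 60% fat diet for 15 weeks and then the 10% fat diet for 28 weeks. Batch 1 held 4 LF, 3 HF and 4 HFLF samples and batch 2 held 4 LF, 3 HF and 5 HFLF samples. Each of the 23 samples is treated as a replicate. The methods of the study describe fewer mice on each diet than there are samples of that diet over both batches, so samples of different batches may share a mouse. The p-values measure the spread between these samples, and those over both batches may be too small.

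Total counts ran from 29189922 to 46498521 in batch 1 and from 31607019 to 65320947 in batch 2. The members together took between 0.202% (HFLF, batch 1) and 0.225% (HF, batch 1) of all counts as group means. The member with the fewest counts in every sample was Gar1, at 174 to 355 counts, so all 48 passed the filter on low counts in each fit and none was near the floor of 3 counts, which stood at 0.0459 to 0.103 per 1000000 raw counts of a library. Such floors cover counting error only. Levels are given as CPM, counts per 1000000 counts of a library after scaling by edgeR's TMM factors. Epithelial marker genes were abundant, with Krt8 at a mean of 5734 CPM, and the hemoglobin genes were at 0. How reads that map to several loci were counted is not given in the sources used here, so this 0 need not mean that blood was absent. Endothelial markers ran from a mean of 0.0781 CPM for Cdh5 to 8.82 CPM for Vwf. Leukocyte markers were present at low levels, from a mean of 0.101 CPM for Cd4 to 12.1 CPM for Ptprc, the general leukocyte marker, with Itgae at 5.91, Cd8a at 1.36 and Cd3g at 1.22 CPM.

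Ribosomes are built in the nucleolus, where RNA polymerase I transcribes a long precursor that snoRNPs modify and nucleases cut, while assembly factors join it to ribosomal proteins and guide the subunits to the cytoplasm. Myc drives this programme in growing cells by raising the transcription of polymerase I genes and of many processing factors. In the colon, dividing cells of the lower crypt carry most of this activity, and it declines as cells mature towards the surface.

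The first question was how continued high-fat feeding compared with low-fat feeding. Most members stood somewhat higher in HF than in LF samples, with small differences: over both batches the median log2 fold change of the 48 members was 0.15, beside −0.01 over all 14385 genes tested. Within batch 1 the median was 0.16 (all genes 0.00) and within batch 2 it was 0.17 (all genes −0.01). The batch 1 median was 0.10 without HF 3 and 0.24 without LF 4. In 36 of 48 members (75.0%) the fold change was above 0 in each batch, beside 36.6% of the 14180 genes tested in both, and in 5 members (10.4%) it was below 0 in each, beside 38.6%. Whether epithelial cells held more of these transcripts or the samples held more cells that express them cannot be told apart in bulk tissue.

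A gene was called when edgeR's quasi-likelihood test gave an adjusted p under 0.05 over all genes and the fold exceeded 1.2. With batch as a term, 10 of 48 members rose in HF against LF (20.8%), beside 9% of all genes, and 0 fell, beside 9.11%, with 28 members higher and 2 lower at an unadjusted p under 0.05, beside 21.8% and 20.3% of all genes. Those that rose were Dkc1, Nhp2 and Nop10 of the box H/ACA snoRNP, Nop58 of the box C/D snoRNP, Npm1, the small subunit factors Wdr75 and Ltv1, and the large subunit factors Mrto4, Wdr12 and Nip7. DESeq2 called 11 as higher, all 10 among them, beside 10% of all genes, and limma voom 8, beside 7.1%. Without the fold threshold the count was 22 of 48, beside 15% of all genes. The count was 6 without HF 3 of batch 1, beside 5.97%, and 16 without LF 4 of batch 1, beside 10.6%, the latter being the sample with the highest members among the LF samples. Those lost were Ltv1, Nip7, Nop58 and Npm1, and those gained were Bysl, Ebna1bp2, Emg1, Gnl3, Nop16 and Polr1e.

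With edgeR or DESeq2, neither batch alone gave that many calls. In batch 1, edgeR called 0 of 48 members in either direction, beside 0% of all genes higher and 0% lower; at an unadjusted p under 0.05, 13 members were higher, beside 12% of all genes, and 1 was lower, beside 10.2%. There DESeq2 called 3 as higher (Dkc1, Nhp2 and Nop10), beside 2.05% of all genes, limma voom called 8, beside 8.04%, and edgeR called 5 when HF 2 was left out, beside 5.23%. In batch 2, edgeR called 4 as higher (Bysl, Mrto4, Nop10 and Wdr75; 8.33%), beside 3.03%, and 0 as lower, beside 4.4%, with 22 and 1 members at an unadjusted p under 0.05, beside 16% and 17.1%; DESeq2 called 6 as higher, beside 5.66%, and limma voom 7, beside 5.87%. The batch 2 count was 0 without LF 1, LF 3, HF 2 or HF 3, beside 0.0698%, 0.0418%, 0.0275% and 0.151% of all genes. It was 2 without LF 2 or HFLF 5, beside 0.81% and 1.9%, and 9 without LF 4, beside 8.04%. With the replicate number as a block it was again 4 (Nhp2, Nop10, Npm1 and Wdr75), of which 2 were shared, beside 6.2%. The test of the difference between batches called 0 of 48 members, beside 0% of all genes, and 0 with DESeq2, beside 0%. At an unadjusted p under 0.05 it gave 1 member, Ubtf, beside 6.56% of all genes.

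Counted by samples that did not overlap, 3 members (Dkc1, Noc4l and Ltv1; 6.25%) were higher in each HF sample than in each LF sample of batch 1, beside 6.29% of all genes, and 2 (Ncl and Ubtf; 4.17%) were lower, beside 7.33%. The batch 2 counts were 19 members higher (39.6%), beside 13.8%, and 0 lower, beside 13.5%. The batch 1 shares were near or under those of all genes.

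**Figure D1:**
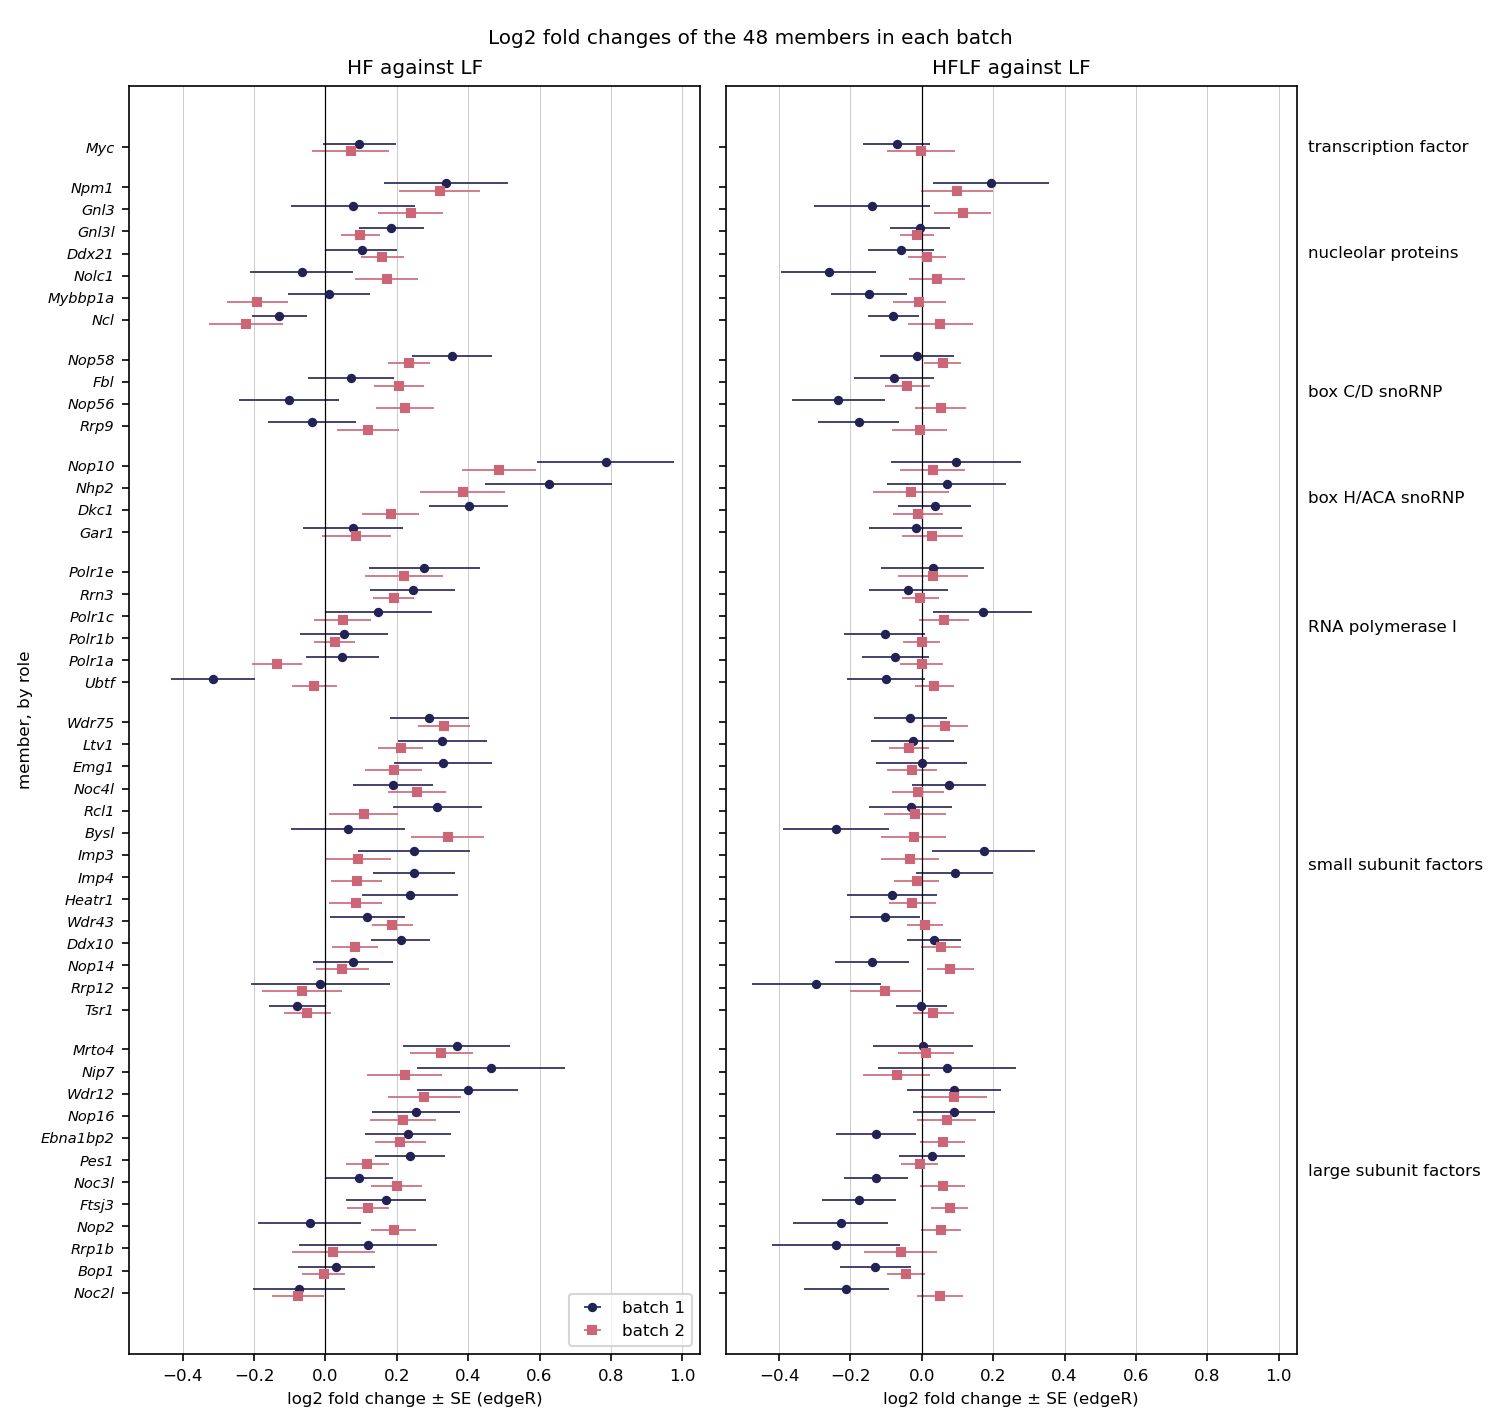
Log2 fold changes of the 48 members for HF against LF (left) and HFLF against LF (right) in batch 1 (circles) and batch 2 (squares), grouped by role, with bars of 1 SE from edgeR. For HF against LF, Nop10 and Nhp2 of the box H/ACA snoRNP lie farthest above 0 in both batches, while Ncl and Ubtf are among those below 0 in both.

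Myc (Entrez 17869, chromosome 15, 61985341 to 61990361 in build mm10, which holds for all positions of genes here) itself did not pass the test in any comparison. In batch 1, Myc stood at 21.1, 19.9, 20.9 and 18.9 CPM in the LF samples, at 21.7, 23.4 and 19.7 CPM in the HF samples and at 17.1, 20.8, 20.5 and 18.6 CPM in the HFLF samples. In batch 2, Myc stood at 26.5, 21.4, 25.4 and 21.4 CPM in the LF samples, at 25.2, 25.4 and 24 CPM in the HF samples and at 20.7, 22.7, 28.8, 21.5 and 24.4 CPM in the HFLF samples. The diets overlapped in both batches, and the highest single value belonged to an HFLF sample of batch 2. The log2 fold change for HF against LF was 0.08 (SE 0.07, adjusted p = 0.375) over both batches and 0.10 and 0.07 within batch 1 and batch 2. The 5 genes outside the lists whose log2 CPM, after removal of batch means, followed Myc most closely over the 23 samples were Ccl25 (Pearson r 0.725), Rdh12 (0.697), Dffa (0.691), Tomm34 (0.657) and Zdhhc19 (0.624), picked as the highest of 14041 genes and given as a description only.

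Among nucleolar proteins, nucleophosmin (Npm1; Entrez 18148, chromosome 11, 33152498 to 33163206), an rRNA and histone chaperone of the granular nucleolus, was the 1 of 7 that rose (14.3%, beside 9% of all genes). In batch 1, Npm1 stood at 256, 191, 159.6 and 209 CPM in the LF samples, at 262, 221 and 291 CPM in the HF samples and at 210.3, 183, 291 and 249.7 CPM in the HFLF samples. In batch 2, Npm1 stood at 193, 248, 191 and 245 CPM in the LF samples, at 271, 287 and 262 CPM in the HF samples and at 199.5, 264, 266, 229 and 215 CPM in the HFLF samples. Each HF sample of batch 2 exceeded each LF sample, whereas the groups of batch 1 overlapped through LF 1. Over both batches Npm1 had a log2 fold change of 0.33 (SE 0.11, adjusted p = 0.0278), and it was 0.34 (SE 0.17, adjusted p = 0.263) in batch 1 and 0.32 (SE 0.11, adjusted p = 0.0787) in batch 2. The call was lost without HF 3 of batch 1, HF 2 of batch 2 or LF 3 of batch 1 (adjusted p 0.0501 to 0.0640), while over 10 other settings the adjusted p ranged from 0.0120 to 0.0331.

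Nucleolin (Ncl; Entrez 17975, chromosome 1, 86344719 to 86359455), which binds precursor rRNA and rDNA chromatin, went the other way without passing the test. In batch 1, Ncl stood at 183, 200.2, 189 and 203 CPM in the LF samples, at 178, 175 and 179 CPM in the HF samples and at 177, 196, 182 and 179 CPM in the HFLF samples. In batch 2, Ncl stood at 131, 121, 122 and 102 CPM in the LF samples, at 112, 91.9 and 102 CPM in the HF samples and at 143, 111, 119, 134 and 110.5 CPM in the HFLF samples. In batch 1 each LF sample was above each HF sample, and in batch 2 LF 4 lay at the HF values. Over both batches Ncl was at a log2 fold change of −0.17 (SE 0.07, adjusted p = 0.0543), and over 10 other settings the adjusted p ran from 0.0351 to 0.142 without a fold beyond 1.2. Of the remaining nucleolar proteins, the GTPase Gnl3l had the smallest p: over both batches its log2 fold change was 0.14 (SE 0.05, adjusted p = 0.0331), under the fold threshold.

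Gnl3l in batch 1 stood at 70.1, 66.7, 62.9 and 71.2 CPM in the LF samples, at 75.3, 69.1 and 86.4 CPM in the HF samples and at 70.4, 62.8, 70.7 and 66.3 CPM in the HFLF samples. Gnl3l in batch 2 stood at 56.1, 59.5, 55.7 and 58 CPM in the LF samples, at 60, 64.9 and 59.2 CPM in the HF samples and at 55.1, 57.5, 54.9, 57.2 and 59.3 CPM in the HFLF samples. HF 3 of batch 1 was far above the rest of its batch, and the diets overlapped in both batches. Log2 fold changes over both batches were 0.16 for Gnl3, 0.13 for the helicase Ddx21, 0.05 for the snoRNP chaperone Nolc1 and −0.09 for Mybbp1a. None of these 4 passed the test.

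Box C/D snoRNPs carry out 2'-O-methylation of rRNA, with fibrillarin (Fbl) as the methyltransferase and Nop56 and Nop58 as the scaffold. Nop58 (Entrez 55989, chromosome 1, 59685006 to 59711510) was the 1 of 4 that rose (25%, beside 9% of all genes), and the others did not pass the test. In batch 1, Nop58 stood at 56.2, 55.1, 50.5 and 68 CPM in the LF samples, at 72.3, 63.6 and 84.3 CPM in the HF samples and at 59.7, 55, 55.9 and 57.2 CPM in the HFLF samples. In batch 2, Nop58 stood at 53.2, 54, 50.5 and 53.4 CPM in the LF samples, at 61.5, 63.4 and 61.2 CPM in the HF samples and at 51.8, 58.1, 58.8, 54.9 and 51.2 CPM in the HFLF samples. In batch 2 the HF samples were above every LF and HFLF sample; in batch 1, LF 4 exceeded HF 2. Over both batches Nop58 had a log2 fold change of 0.30 (SE 0.06, adjusted p = 0.00536), with 0.35 (SE 0.11, adjusted p = 0.162) in batch 1 and 0.23 (SE 0.06, adjusted p = 0.0369) in batch 2, where the fold was under 1.2. Without HF 3 of batch 1 it was 0.25, under the fold threshold, and limma voom without a block did not call Nop58 over both batches.

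In batch 1, Fbl stood at 15.5, 13.3, 15.1 and 17.6 CPM in the LF samples, at 17.7, 15.9 and 14.8 CPM in the HF samples and at 15.3, 15.8, 14.3 and 12.7 CPM in the HFLF samples. In batch 2, Fbl stood at 21.2, 19.2, 19.3 and 20.9 CPM in the LF samples, at 21.8, 25.2 and 22.8 CPM in the HF samples and at 19.6, 19, 20.8, 18.8 and 19.6 CPM in the HFLF samples. The HF samples were highest in batch 2 and mixed with the LF samples in batch 1. For Fbl the log2 fold change over both batches was 0.14 (SE 0.06, adjusted p = 0.0983). In batch 1, Nop56 stood at 45.1, 47.3, 52.1 and 64.9 CPM in the LF samples, at 48.3, 52.1 and 46 CPM in the HF samples and at 45.8, 54.3, 39.3 and 38.6 CPM in the HFLF samples. In batch 2, Nop56 stood at 52.4, 47.4, 45.9 and 45.8 CPM in the LF samples, at 52.1, 56.2 and 59.3 CPM in the HF samples and at 51.5, 52.5, 54.1, 42.6 and 47.7 CPM in the HFLF samples. LF 4 was the highest sample of batch 1, and HF 2 and HF 3 were the highest of batch 2. For Nop56 the log2 fold change over both batches was 0.06 (SE 0.09, adjusted p = 0.617), and the batches differed by 0.32 (SE 0.16, adjusted p = 0.773). Nop56 overlaps Idh3b on the opposite strand. For Rrp9, which binds the U3 snoRNA, the log2 fold change was 0.04.

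Box H/ACA snoRNPs convert uridines of rRNA to pseudouridine: dyskerin (Dkc1) is the enzyme and Nhp2, Nop10 and Gar1 complete the core, which telomerase RNA shares. Of these 4 genes 3 rose (75%), beside 9% of all genes. Nop10 and Nhp2 had the largest log2 fold changes of all 48 members over both batches, except with each library's trend with coding length removed, where Wdr75 and Heatr1 came first. In batch 1, Nop10 stood at 19.1, 15.7, 14.1 and 21.2 CPM in the LF samples, at 30.9, 21.1 and 38.6 CPM in the HF samples and at 20.4, 15.7, 21.5 and 17.4 CPM in the HFLF samples. In batch 2, Nop10 stood at 23.7, 24.7, 23.1 and 26.6 CPM in the LF samples, at 31.5, 36.1 and 35.5 CPM in the HF samples and at 20.7, 27.8, 27.9, 22 and 26.9 CPM in the HFLF samples. All HF samples of batch 2 were above all others, and in batch 1, HF 1 and HF 3 were above all others while HF 2 lay level with LF 4. Nop10 (Entrez 66181, chromosome 2, 112261926 to 112262898) had a log2 fold change over both batches of 0.64 (SE 0.12, adjusted p = 0.00238); it was 0.78 (SE 0.19, adjusted p = 0.139) in batch 1 and 0.49 (SE 0.10, adjusted p = 0.0259) in batch 2, with the batches differing by −0.30 (adjusted p = 0.873). In batch 2 the call was lost without LF 1, LF 3, HF 2 or HF 3 (adjusted p 0.0784 to 0.147), and over both batches it held in each of 23 refits with 1 sample left out.

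In batch 1, Nhp2 stood at 17.8, 15.1, 15.5 and 23 CPM in the LF samples, at 27, 20.7 and 35 CPM in the HF samples and at 20.8, 17.7, 19.7 and 16.9 CPM in the HFLF samples. In batch 2, Nhp2 stood at 21.6, 24, 22.4 and 26.7 CPM in the LF samples, at 27.4, 34.7 and 30.8 CPM in the HF samples and at 21.5, 26.8, 25.4, 18.2 and 24 CPM in the HFLF samples. The order of samples was much like that of Nop10, with HF 3 of batch 1 and HF 2 of batch 2 highest. Nhp2 (Entrez 52530, chromosome 11, 51619773 to 51623714) had a log2 fold change over both batches of 0.51 (SE 0.11, adjusted p = 0.00563), with 0.63 (SE 0.18, adjusted p = 0.160) in batch 1 and 0.39 (SE 0.12, adjusted p = 0.0546) in batch 2. In batch 1, Dkc1 stood at 23.1, 18.9, 21 and 22.9 CPM in the LF samples, at 28.6, 25.5 and 31 CPM in the HF samples and at 22.8, 19.1, 23.7 and 22.6 CPM in the HFLF samples. In batch 2, Dkc1 stood at 27.8, 28.3, 23.1 and 26.4 CPM in the LF samples, at 27, 30.2 and 32.6 CPM in the HF samples and at 25.8, 27.7, 26.6, 25.1 and 25.8 CPM in the HFLF samples. In batch 1 the HF samples of Dkc1 were above every other sample, and in batch 2, HF 1 lay within the LF range. Dkc1 (Entrez 245474, chromosome X, 75095854 to 75109776) had a log2 fold change over both batches of 0.29 (SE 0.07, adjusted p = 0.00690), with 0.40 (SE 0.11, adjusted p = 0.156) in batch 1 and 0.18 (SE 0.08, adjusted p = 0.129) in batch 2. Both calls over both batches held in each of 23 refits with 1 sample left out. Gar1 was at 0.08. Nhp2 overlaps Rmnd5b and Dkc1 overlaps Mpp1 on the opposite strand, and the use of strand in counting is not given in the sources used here, so their counts may hold reads of those neighbours.

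**Figure D2:**
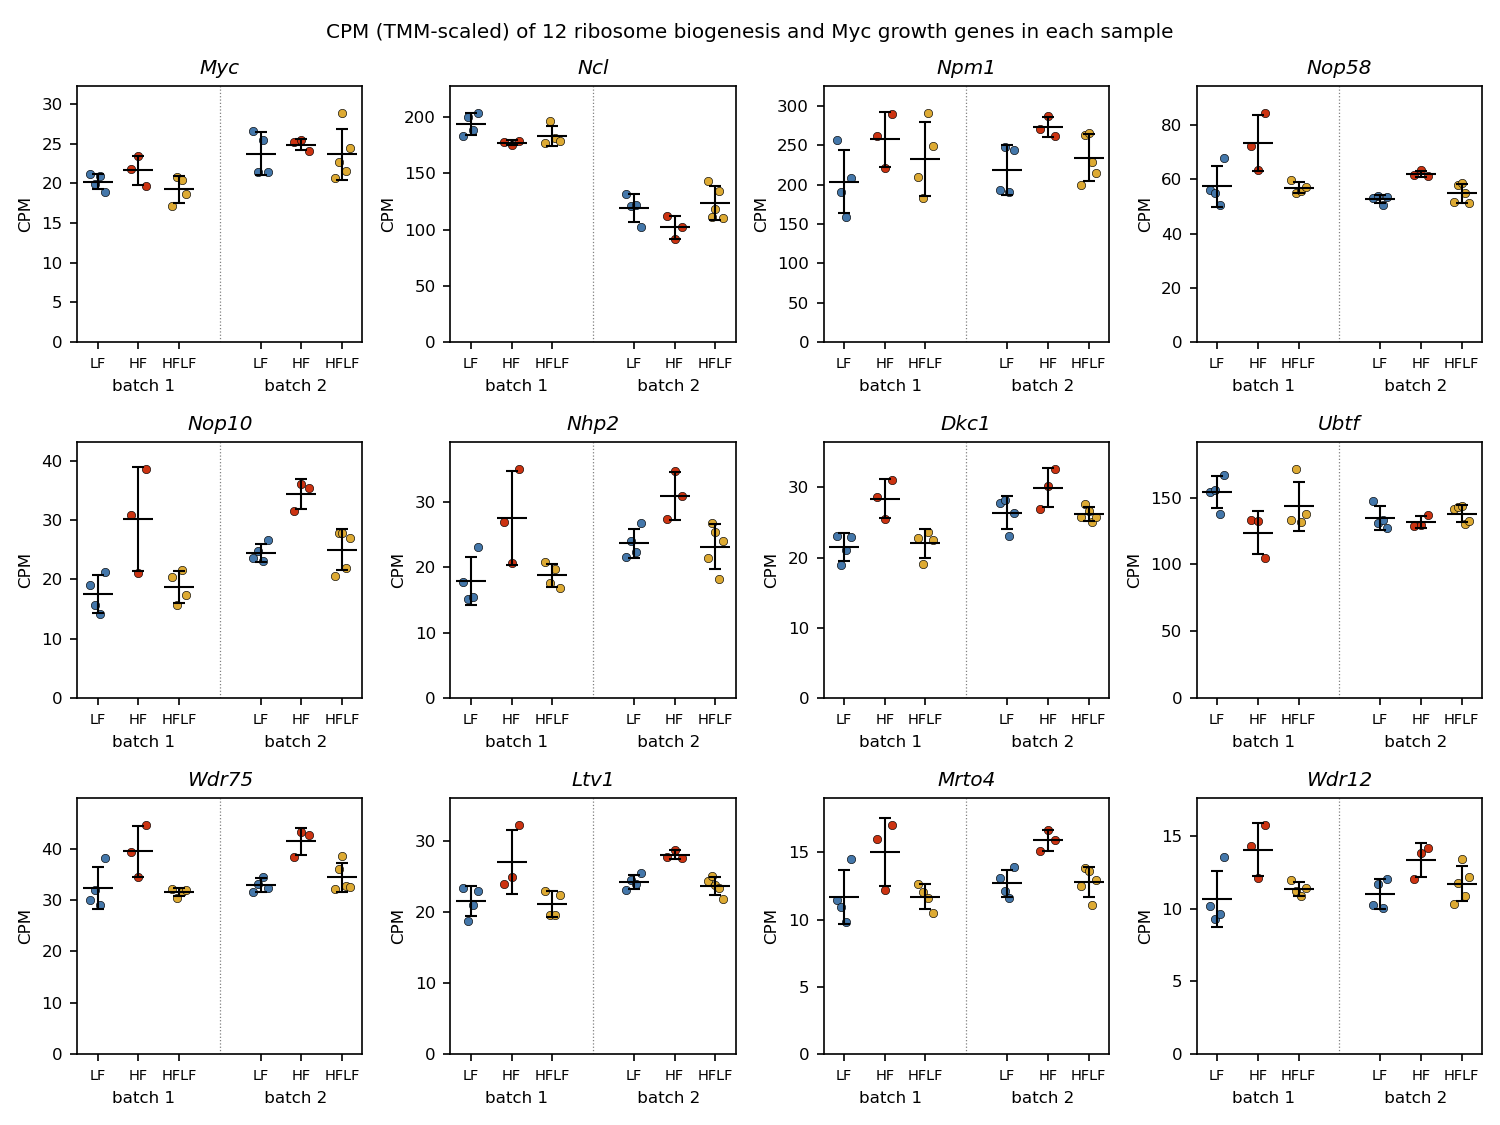
Normalised CPM of single members in each sample, by diet and batch, with points for samples, wide lines for group means and bars of 1 SD. For Nop10 and Nhp2 the HF samples of batch 2 stand above the other diets of that batch and HF 3 is the highest sample of batch 1, while Myc overlaps between diets.

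None of the 6 genes of RNA polymerase I transcription was called for HF against LF over both batches, by edgeR, DESeq2 or limma voom, with 2 higher and 1 lower at an unadjusted p under 0.05, beside 21.8% and 20.3% of all genes. Rrn3 and Polr1e passed the threshold of adjusted p but not that of the fold. The initiation factor Rrn3 (Entrez 106298, chromosome 16, 13780699 to 13814841) brings the polymerase to the promoter. In batch 1, Rrn3 stood at 45.1, 41.2, 38.6 and 48 CPM in the LF samples, at 49.6, 42.5 and 61.5 CPM in the HF samples and at 43.3, 39.1, 44.7 and 41.4 CPM in the HFLF samples. In batch 2, Rrn3 stood at 40.5, 43.5, 42.3 and 43.6 CPM in the LF samples, at 47.8, 50.3 and 47.4 CPM in the HF samples and at 44.2, 44.1, 43.5, 39.2 and 41.1 CPM in the HFLF samples. The HF samples of batch 2 stood above all others, and HF 3 stood apart at the top of batch 1. Its log2 fold change over both batches was 0.22 (SE 0.06, adjusted p = 0.0170), a fold under 1.2, with 0.25 (SE 0.12, adjusted p = 0.241) in batch 1 and 0.19 (SE 0.06, adjusted p = 0.0515) in batch 2. The subunit Polr1e was similar in size. In batch 1, Polr1e stood at 7.38, 7.05, 8.22 and 10.5 CPM in the LF samples, at 9.32, 9.30 and 11.5 CPM in the HF samples and at 8.98, 9.01, 8.64 and 7.22 CPM in the HFLF samples. In batch 2, Polr1e stood at 7.95, 7.84, 8.67 and 10.6 CPM in the LF samples, at 9.92, 10.5 and 10.3 CPM in the HF samples and at 9.07, 9.65, 9.54, 7.76 and 8.90 CPM in the HFLF samples. LF 4 lay among the HF samples in batch 1 and above them in batch 2. Its log2 fold change over both batches was 0.25 (SE 0.09, adjusted p = 0.0419), and it overlaps Fbxo10 on the opposite strand. edgeR called Polr1e with no low count filter (log2 fold change 0.26) and without LF 4 of batch 1 (0.32), HF 2 of batch 1 (0.27), LF 4 of batch 2 (0.31) or HF 1 of batch 2 (0.27), at adjusted p of 0.0105 to 0.0485. It called Rrn3 without HF 2 of batch 1 (0.27) and with the trend with coding length removed (0.27), at adjusted p of 0.00307 to 0.0102.

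The catalytic subunits moved little. In batch 1, Polr1a stood at 34.9, 37.6, 41.6 and 44.1 CPM in the LF samples, at 36.3, 41.6 and 44.7 CPM in the HF samples and at 36, 40.5, 35.9 and 37.9 CPM in the HFLF samples. In batch 2, Polr1a stood at 45.3, 43.7, 44.1 and 37.7 CPM in the LF samples, at 38.3, 37.2 and 41 CPM in the HF samples and at 46.2, 40.9, 41.9, 42.2 and 42.2 CPM in the HFLF samples. The diets overlapped in each batch. For the largest subunit gene Polr1a the log2 fold change over both batches was −0.04 (SE 0.06, adjusted p = 0.638), and its sign turned with the setting, from −0.10 to 0.13. In batch 1, Polr1b stood at 27.8, 31.2, 34.8 and 41.9 CPM in the LF samples, at 34.4, 36.7 and 34.4 CPM in the HF samples and at 32.4, 34.4, 29.8 and 29.7 CPM in the HFLF samples. In batch 2, Polr1b stood at 41.5, 39.9, 41.1 and 37.3 CPM in the LF samples, at 39.8, 39.3 and 42.8 CPM in the HF samples and at 41, 38.1, 41.1, 40.5 and 38.9 CPM in the HFLF samples. These too overlapped. For Polr1b it was 0.04 (SE 0.06, adjusted p = 0.654), and that of Polr1c, a subunit shared with RNA polymerase III, was 0.10.

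Ubtf (Entrez 21429, chromosome 11, 102304560 to 102319096), the factor that keeps rDNA in its active chromatin state, stood lower in HF samples of batch 1. In batch 1, Ubtf stood at 154, 156, 138 and 167 CPM in the LF samples, at 134, 132 and 105 CPM in the HF samples and at 133, 171, 132 and 137 CPM in the HFLF samples. In batch 2, Ubtf stood at 148, 131, 134 and 127 CPM in the LF samples, at 129, 129.5 and 137 CPM in the HF samples and at 141, 143, 144, 129.9 and 133 CPM in the HFLF samples. In batch 1 each HF sample was below each LF sample, HF 3 lowest, and in batch 2 the diets overlapped. Ubtf was at a log2 fold change of −0.32 (SE 0.12, adjusted p = 0.177) in batch 1 and −0.03 (SE 0.06, adjusted p = 0.760) in batch 2, and the batches differed by 0.28 (adjusted p = 0.747). Over both batches it was −0.17 (SE 0.07, adjusted p = 0.0666).

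Small subunit factors form the processome that cleaves the precursor on the way to 18S rRNA and then mature the small subunit in the cytoplasm. Of 14, Wdr75 and Ltv1 rose, a share (14.3%) not far from the 9% of all genes, while 10 were higher at an unadjusted p under 0.05, beside 21.8%, and 0 lower, beside 20.3%. In batch 1, Wdr75 stood at 30.1, 31.9, 29 and 38.1 CPM in the LF samples, at 39.5, 34.5 and 44.6 CPM in the HF samples and at 32.2, 30.4, 31.6 and 32.1 CPM in the HFLF samples. In batch 2, Wdr75 stood at 31.5, 33.2, 34.6 and 32.4 CPM in the LF samples, at 38.4, 43.3 and 42.6 CPM in the HF samples and at 32.2, 36.1, 38.6, 32.7 and 32.5 CPM in the HFLF samples. HF samples of batch 2 were above all LF samples, and those of batch 1 were above all others except LF 4. For Wdr75 (Entrez 73674, chromosome 1, 45795501 to 45823613), a part of the complex that couples polymerase I transcription to processing, the log2 fold change was 0.31 (SE 0.06, adjusted p = 0.00435) over both batches, 0.29 (SE 0.11, adjusted p = 0.178) in batch 1 and 0.33 (SE 0.07, adjusted p = 0.0280) in batch 2. The batch 2 call was lost without LF 1, LF 3, HF 2 or HF 3 (adjusted p 0.0734 to 0.154), and the call over both batches held with each of 23 samples left out.

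In batch 1, Ltv1 stood at 23.4, 18.7, 21 and 22.9 CPM in the LF samples, at 23.9, 25 and 32.2 CPM in the HF samples and at 22.9, 19.6, 19.5 and 22.4 CPM in the HFLF samples. In batch 2, Ltv1 stood at 23.1, 24.4, 23.9 and 25.5 CPM in the LF samples, at 27.8, 28.7 and 27.6 CPM in the HF samples and at 24.3, 25.1, 23.8, 23.3 and 21.8 CPM in the HFLF samples. Every HF sample was above every LF and HFLF sample of its own batch. For Ltv1 (Entrez 353258, chromosome 10, 13178638 to 13193137), which guards the maturing head of the small subunit, the log2 fold change was 0.27 (SE 0.07, adjusted p = 0.00824) over both batches, 0.33 (SE 0.12, adjusted p = 0.178) in batch 1 and 0.21 (SE 0.06, adjusted p = 0.0507) in batch 2. It fell under the fold threshold, to 0.22 without HF 3 and 0.25 without LF 2 of batch 1. Over both batches limma voom without a block did not call Ltv1. In batch 1, Noc4l stood at 10.5, 10.9, 13 and 12.7 CPM in the LF samples, at 13.1, 13.5 and 13.7 CPM in the HF samples and at 12.2, 13.7, 11.6 and 12.3 CPM in the HFLF samples. In batch 2, Noc4l stood at 14.6, 14.9, 15.6 and 14.5 CPM in the LF samples, at 15.8, 18.9 and 18.8 CPM in the HF samples and at 15.1, 15.7, 14.4, 13.3 and 15.5 CPM in the HFLF samples. HF samples exceeded LF samples in both batches, by a narrow margin in each. Noc4l, the partner of Nop14, had a log2 fold change of 0.23 (SE 0.06, adjusted p = 0.0133) over both batches, under the fold threshold.

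Bysl, which acts late in small subunit maturation, was called for HF against LF in batch 2, and over both batches only without LF 4 of batch 1 among the settings run. In batch 1, Bysl stood at 15.5, 16.5, 17.2 and 25.5 CPM in the LF samples, at 17.9, 19.9 and 20.8 CPM in the HF samples and at 17.6, 16.9, 14.4 and 14.4 CPM in the HFLF samples. In batch 2, Bysl stood at 18.8, 16.7, 18.1 and 18 CPM in the LF samples, at 20.5, 25 and 22.6 CPM in the HF samples and at 16.9, 17.8, 21.1, 14.8 and 17.5 CPM in the HFLF samples. LF 4 was the highest sample of batch 1 by a wide gap, and in batch 2 the HF samples were above the LF samples. Bysl was at a log2 fold change of 0.34 (SE 0.10, adjusted p = 0.0496) in batch 2 and 0.06 (SE 0.16, adjusted p = 0.826) in batch 1, a difference of 0.28 (adjusted p = 0.859). The batch 2 call was lost without LF 1, LF 2, LF 3, HF 2, HF 3, HFLF 2 or HFLF 5 (adjusted p 0.0529 to 0.236) and with the replicate number as a block, and Bysl overlaps Ccnd3 on the opposite strand. Over both batches the other small subunit factors were at log2 fold changes of 0.26 for the methyltransferase Emg1, 0.21 for Rcl1, 0.17 for Imp3, 0.17 for Imp4, 0.16 for Heatr1, 0.15 for Wdr43, 0.15 for Ddx10, 0.06 for Nop14, −0.04 for Rrp12 and −0.06 for Tsr1. Emg1 lay near the fold threshold and its call varied with the setting. DESeq2 called it, as did edgeR with other scaling, with other low count filters and in several refits with 1 sample left out. It was not called by limma voom.

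Large subunit factors include the complex of Pes1, Bop1 and Wdr12, which is needed to process the spacer between 5.8S and 28S rRNA. Of 12 factors, Mrto4, Wdr12 and Nip7 rose (25%), beside 9% of all genes, and 8 were higher at an unadjusted p under 0.05, beside 21.8%, and 0 lower, beside 20.3%. In batch 1, Mrto4 stood at 11.4, 10.9, 9.82 and 14.5 CPM in the LF samples, at 16, 12.2 and 17 CPM in the HF samples and at 12.7, 12, 11.6 and 10.5 CPM in the HFLF samples. In batch 2, Mrto4 stood at 13.1, 12.1, 11.6 and 13.9 CPM in the LF samples, at 15.1, 16.6 and 15.9 CPM in the HF samples and at 12.5, 13.8, 13.6, 11.1 and 12.9 CPM in the HFLF samples. HF samples of batch 2 exceeded all others, and in batch 1, LF 4 lay between HF 2 and HF 1. For Mrto4 (Entrez 69902, chromosome 4, 139347440 to 139352576), which holds the place of the stalk protein on the nascent subunit, the log2 fold change was 0.35 (SE 0.08, adjusted p = 0.00749) over both batches, 0.37 (SE 0.15, adjusted p = 0.191) in batch 1 and 0.32 (SE 0.09, adjusted p = 0.0420) in batch 2. The batch 2 call was lost without LF 1, LF 2, LF 3, HF 1, HF 2, HF 3 or HFLF 5 (adjusted p 0.0525 to 0.209) and with the replicate number as a block, and the call over both batches held with each of 23 samples left out.

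In batch 1, Wdr12 stood at 10.2, 9.28, 9.60 and 13.5 CPM in the LF samples, at 14.3, 12.1 and 15.7 CPM in the HF samples and at 12, 11.2, 10.9 and 11.4 CPM in the HFLF samples. In batch 2, Wdr12 stood at 10.2, 11.7, 10 and 12 CPM in the LF samples, at 12, 13.8 and 14.1 CPM in the HF samples and at 10.3, 11.8, 13.4, 10.9 and 12.2 CPM in the HFLF samples. HF 1 and HF 3 were the highest samples of batch 1, with LF 4 next, and in batch 2 HF 1 lay within the HFLF range. Wdr12 (Entrez 57750, chromosome 1, 60076868 to 60098500) had a log2 fold change of 0.34 (SE 0.08, adjusted p = 0.00873) over both batches, 0.40 (SE 0.14, adjusted p = 0.168) in batch 1 and 0.28 (SE 0.10, adjusted p = 0.0859) in batch 2, and its call over both held with each of 23 samples left out. It overlaps Carf on the opposite strand. In batch 1, Pes1 stood at 40.2, 36.8, 41.1 and 47.3 CPM in the LF samples, at 48.9, 44.6 and 52.9 CPM in the HF samples and at 41.4, 39.6, 46 and 42 CPM in the HFLF samples. In batch 2, Pes1 stood at 48.1, 50.4, 47.5 and 48.4 CPM in the LF samples, at 48.5, 54.9 and 54.8 CPM in the HF samples and at 47.1, 51.1, 48.1, 46 and 49.8 CPM in the HFLF samples. HF 1 of batch 2 stood among the LF samples, as did HF 2 of batch 1. For Pes1 the log2 fold change was 0.18 (SE 0.05, adjusted p = 0.0206) over both batches, a fold under 1.2, and that of Bop1 was 0.01.

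In batch 1, Nip7 stood at 15, 11.3, 13.2 and 21.5 CPM in the LF samples, at 21, 15.3 and 26.8 CPM in the HF samples and at 16.2, 16.2, 17.1 and 14.8 CPM in the HFLF samples. In batch 2, Nip7 stood at 17.2, 17.4, 17.9 and 20 CPM in the LF samples, at 21.7, 22 and 19.7 CPM in the HF samples and at 14.3, 19.2, 20.1, 15.7 and 16.8 CPM in the HFLF samples. LF 4 was the highest LF sample in both batches and overlapped the HF samples in each. Nip7 (Entrez 66164, chromosome 8, 107056877 to 107060928), which binds pre-60S particles, had a log2 fold change of 0.34 (SE 0.12, adjusted p = 0.0351) over both batches. Without LF 1, LF 2, LF 3, HF 1 or HF 3 of batch 1 or HF 2 of batch 2 its adjusted p was 0.0511 to 0.110, and over 10 other settings it ranged from 0.0173 to 0.116, so this call was the least stable of the 10. Over both batches the remaining large subunit factors were at log2 fold changes of 0.24 for Nop16, 0.22 for Ebna1bp2, 0.15 for Noc3l, 0.15 for Ftsj3, 0.07 for the methyltransferase Nop2, 0.07 for Rrp1b and −0.07 for Noc2l.

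Members with short coding sequences stood highest, and by this measure of length so did genes with short coding sequences in general. Over both batches the median log2 fold change for HF against LF was 0.22 over genes with a coding sequence under 0.5 kb, 0.10 from 0.5 to 1 kb, 0.00 from 1 to 2 kb, −0.08 from 2 to 3 kb and −0.17 over 3 kb. The medians of the members in the same order were 0.57 (2 genes, Nop10 and Nhp2), 0.23 (10 genes), 0.21 (16 genes), 0.07 (15 genes) and −0.04 (5 genes). Thus 45 of 48 members were above the median of their own length class, and Spearman's rho across 12907 genes, which are not independent replicates, was −0.389. The measure of length mattered: by the length of all exons merged or of the principal transcript, the genes under 0.5 kb had medians of −0.28 and −0.26, below those of genes over 3 kb at −0.06 and −0.07, and 38 and 41 members were above the median of their class, although rho was −0.248 and −0.245. The longest coding sequence was kept after all 3 were seen.

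The difference between the medians of genes under 0.5 kb and over 3 kb, each relative to the LF mean of the batch on the log2 scale, was 0.24, −0.12, −0.31 and 0.18 in the LF samples of batch 1, 0.48, 0.04 and 0.49 in its HF samples and 0.30, −0.10, 0.36 and 0.05 in its HFLF samples. For batch 2 these were −0.16, 0.04, −0.08 and 0.20 in LF, 0.26, 0.56 and 0.30 in HF and −0.30, 0.20, 0.09, −0.17 and −0.03 in HFLF samples. HF 1 and HF 3 of batch 1 and each HF sample of batch 2 were above every other sample of their batch, whereas HF 2 of batch 1 was not.

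When each library's trend with coding length was removed, 10 members were again called over both batches, beside 6.28% of all genes, of which 8 were shared: Mrto4 and Nip7 were lost and Rrn3 and Heatr1 gained. The log2 fold change of Nop10 went from 0.64 to 0.35 and that of Nhp2 from 0.51 to 0.34, while Wdr75 went from 0.31 to 0.40 and Heatr1, the longest member, from 0.16 to 0.36, so that Wdr75 and Heatr1 were then the highest of the 48. In batch 2 the count was 3 (Heatr1, Nop2 and Wdr75), beside 2.11%, 1 of them shared. The median over the members was 0.17 over both batches. What makes the difference depend on length was not tested.

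**Figure D3:**
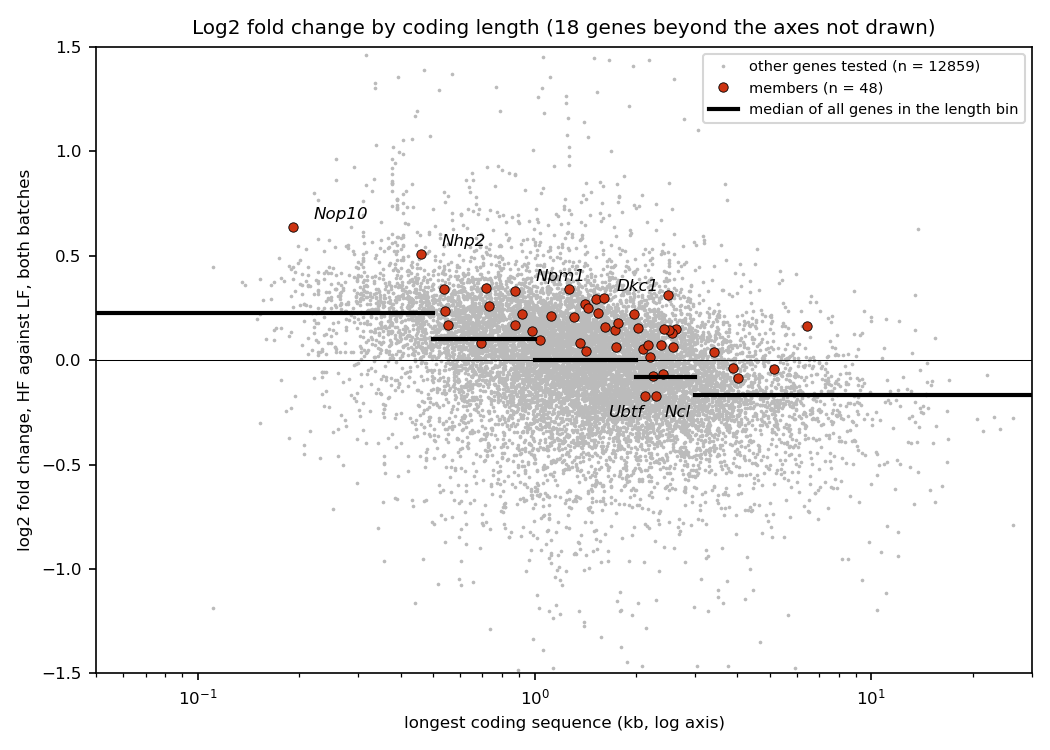
Log2 fold change for HF against LF over both batches against coding length in kb on a log axis, with other genes as small points, the 48 members as large ones and lines for the median of each length class (genes beyond the axes are not drawn). The medians run from 0.22 under 0.5 kb to −0.17 over 3 kb of coding sequence, and 45 members lie above the median of their class.

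The second question was whether members differed after a return to the low-fat diet, in HFLF against LF samples. Here edgeR called 0 of 48 members in each fit: in batch 1, beside 0% of all genes higher and 0% lower, in batch 2, beside 0% higher and 0.00696% lower, and over both batches, beside 0% higher and 0% lower. At an unadjusted p under 0.05 the members' count was 0 in all 3 fits, beside 2.5% of genes higher and 2.79% lower in batch 1, 2.15% and 2.5% in batch 2, and 1.92% and 2.19% over both. DESeq2 also called 0, beside 0.00693% of genes higher and 0.0347% lower in batch 1, 0.0278% and 0.0835% in batch 2 and 0% and 0.0417% over both, and limma voom called 0, beside 0% in each batch and 0% higher and 0.0209% lower over both, although limma voom had 7 of 48 members lower at an unadjusted p under 0.05 in batch 1, beside 10.2% of all genes. The median log2 fold change was −0.05 in batch 1, 0.01 in batch 2 and −0.01 over both. Each of these changed sign when 1 sample was left out, running in batch 1 from −0.08 (without LF 3) to 0.02 (without LF 4), in batch 2 from −0.01 (without HFLF 3) to 0.03 (without HFLF 4) and over both from −0.03 (without HFLF 3 of batch 2) to 0.01 (without LF 4 of batch 1).

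In 16 of 48 members (33.3%) the fold change was below 0 in each batch, beside 21.3% of the 14180 genes tested in both, and in 8 (16.7%) it was above 0 in each, beside 23.9%. Single members ranged over both batches from −0.19 for Rrp12 to 0.15 for Npm1. For members that rose in HF against LF, the values of HFLF against LF included log2 fold changes of 0.07 (SE 0.11, adjusted p = 0.980) for Nop10 and 0.02 (SE 0.06, adjusted p = 0.980) for Wdr75. An adjusted p above the threshold does not show that the groups were equal.

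The comparison of HF with HFLF samples, which shares the HF samples with the first, addressed continued against ended high-fat feeding. Over both batches 10 members were higher in HF (20.8%), beside 4.9% of all genes, and 0 lower, beside 5.44%, with 25 and 2 at an unadjusted p under 0.05, beside 17.2% and 18.6%. They were Bysl, Dkc1, Emg1, Ltv1, Mrto4, Nhp2, Nip7, Nop10, Nop58 and Wdr75. DESeq2 called 10 as higher, beside 6.03%, and limma voom 5 (Bysl, Mrto4, Nhp2, Nop10 and Wdr75), beside 3.98%. Without the fold threshold there were 20, beside 8.04% of all genes. The median over members was 0.16 (all genes −0.01), and in 40 members (83.3%) the fold change was above 0 in each batch, beside 34.5% of genes, and in 4 (8.33%) below 0, beside 35.2%. In batch 2 the count was 6 (Bysl, Mrto4, Nhp2, Noc4l, Nop10 and Wdr75; 12.5%), beside 5.61%, and 0 lower, beside 8.89%, with 20 and 2 at an unadjusted p under 0.05, beside 17.9% and 20.3%. There DESeq2 called 7 higher and 1 lower (Ncl), beside 7.42% and 9.71%, limma voom called 7 higher and 0 lower, beside 6.01% and 9.65%, and without the fold threshold 11 were higher, beside 8.53%. In batch 2 Ncl was at a log2 fold change of −0.27 (SE 0.10, adjusted p = 0.0643) and edgeR called it as lower without LF 4 or HFLF 2. In batch 1, edgeR called 0, beside 0% higher and 0.00693% lower, DESeq2 called 0, beside 0.0416% and 0.0762%, limma voom called 0, beside 0.00693% and 0.0139%, and 15 members were higher and 0 lower at an unadjusted p under 0.05, beside 6.04% and 4.81% of all genes.

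The log2 fold changes for HF against HFLF over both batches were 0.57 (SE 0.11, adjusted p = 0.00835) for Nop10, 0.48 (SE 0.11, adjusted p = 0.0131) for Nhp2, 0.29 (SE 0.06, adjusted p = 0.0109) for Wdr75 and 0.33 (SE 0.08, adjusted p = 0.0152) for Mrto4, and these 4 were called with each of 23 samples left out. Ltv1 (0.29) was at 0.24 without HF 3 of batch 1. Nop58 (0.26) was at 0.22 to 0.26 without HF 1, HF 3, HFLF 3 or HFLF 4 of batch 1, and Dkc1 (0.27) at 0.25 to 0.26 without HF 1, HF 3 or HFLF 2 of batch 1, all folds under 1.2.

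Bysl (0.33) was lost without HF 3 of batch 1 or HF 2 or HF 3 of batch 2 (adjusted p 0.0501 to 0.0726). Emg1 (0.27), which overlaps Lpcat3 on the opposite strand, was lost without HF 3 or HFLF 4 of batch 1 or HF 2 of batch 2 (log2 fold change 0.22 to 0.27, adjusted p 0.0455 to 0.0707). Nip7 (0.34) was called in 12 of 23 refits and lost without LF 1, HF 1, HF 3, HFLF 2 or HFLF 4 of batch 1 or HF 1, HF 2, HF 3, HFLF 1, HFLF 4 or HFLF 5 of batch 2 (adjusted p 0.0509 to 0.133). The total was 4 without HF 3 of batch 1, beside 1.88% of all genes. In batch 2 the total was 0 without HF 2, beside 0.0138%, and 1 without HF 3, HFLF 1 or HFLF 4, beside 1.36%, 1.79% and 1.98%. Without HFLF 2 it was 9 higher and 1 lower (Ncl), beside 9.41% and 9.91%.

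The differences varied with coding length here too, with Spearman's rho at −0.377 across 12907 genes over both batches. With each library's trend with coding length removed, 9 members were called over both batches, beside 3.33% of all genes: Mrto4 (0.25), Emg1 (0.19) and Nip7 (0.22) were lost and Heatr1 (0.38) and Rrn3 (0.28) gained. In batch 2 the members called were then Bysl, Heatr1, Noc4l and Wdr75, beside 2.75%, and the calls of Mrto4, Nhp2 and Nop10 were lost, at log2 fold changes of 0.20, 0.23 and 0.16.

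Other genes of the pathway were counted for HF against LF over both batches, where 9% of all genes were called higher and 9.11% lower. Genes with short coding sequences stood higher in general in this comparison, with a median of 0.22 under 0.5 kb. The part of coding length in the counts of these lists and those that follow was not tested. Of 37 other small subunit factors 7 rose (18.9%) and 0 fell, with Fcf1 at 0.36 (SE 0.08, adjusted p = 0.00531) and Krr1 at 0.31 (SE 0.07, adjusted p = 0.00563) on the log2 scale. Of 44 other large subunit factors 8 rose (18.2%) and 0 fell, with Rpf2 at 0.45 and Brix1 at 0.26. Of 14 genes of the RNA exosome, which trims precursor ends, 6 rose (42.9%) and 0 fell, with C1d at 0.43 and Mphosph6 at 0.35. Among 14 other genes of RNA polymerase I transcription 2 rose (14.3%), Polr2k at 0.39 and Polr2h at 0.39, which are subunits shared by the RNA polymerases, and 1 fell (Taf1c; 7.14%). Among 11 snoRNP assembly genes 2 rose (18.2%), Znhit3 and, at 0.43, Nhp2l1, the core protein of box C/D particles, while Nufip1 at 0.24 was under the fold threshold. The counts of these last lists rest on 2 genes each and are not far from the share of all genes.

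Of 24 other growth targets of Myc 12 rose (50%) and 0 fell, with the nucleotide kinase Nme1 at 0.60 (SE 0.11, adjusted p = 0.00291), while Pa2g4 at 0.24 (SE 0.05, adjusted p = 0.00308) was under the fold threshold. Of 19 genes of the network around Myc, which holds related factors as well as its direct partners, 0 rose and 4 fell (21.1%). Those that fell were Mlxip, Mlxipl, Trrap and the repressor Mnt, which was at −0.41 (SE 0.12, adjusted p = 0.0156). Zbtb17 at −0.19 was under the fold threshold. Of 10 host genes of snoRNAs 0 were called by edgeR in either direction, with Gas5 at −0.11 and Snhg6 at 0.27. At an unadjusted p under 0.05 there were 0, beside 21.8% of all genes higher and 20.3% lower. In batch 1 edgeR called 0 genes of any of these lists, where it called 0% of all genes higher and 0% lower.

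Within batch 2, where 3.03% of all genes were called higher and 4.4% lower, 7 of the 37 other small subunit factors rose (18.9%), Krr1 among them, and 6 of the 44 other large subunit factors (13.6%), Rpf2 and Brix1 among them. So did 2 of 14 exosome genes (C1d and Mphosph6; 14.3%), 2 of 14 other polymerase I genes (Polr2h and Znrd1; 14.3%), Nhp2l1 of 11 snoRNP assembly genes (9.09%) and 5 of 24 other growth targets of Myc (Eif4e, Nme1, Nme2, Ran and Tfrc; 20.8%). None of these 6 lists had a gene called lower there. Of the 19 genes around Myc 3 fell (Mlxip, Mlxipl and Trrap; 15.8%) and 0 rose. For the 10 snoRNA host genes edgeR called 0, with 0 higher and 1 lower at an unadjusted p under 0.05, beside 16% and 17.1% of all genes. In batch 1, at an unadjusted p under 0.05, 14 of the 24 growth targets, 9 of the 37 small subunit factors, 6 of the 44 large subunit factors, 5 of the 14 exosome genes, 4 of the 14 polymerase I genes and 1 of the 11 snoRNP assembly genes were higher, beside 12% of all genes, and 4 of the 19 genes around Myc were lower, beside 10.2%.

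Markers of cell types were counted in the same way. Of 20 genes of proliferating cells 13 rose (65%) and 0 fell for HF against LF over both batches, beside 9% and 9.11% of all genes, with a median of 0.41 and Mki67 as the most abundant. Their summed level was 471, 452, 691 and 533 CPM in the LF samples of batch 1, 755, 657 and 1106 CPM in its HF samples and 798, 593, 486 and 564 CPM in its HFLF samples. For batch 2 it was 926, 838, 842 and 859 CPM in LF, 893, 1005 and 891 CPM in HF and 847, 839.9, 702, 735 and 1011 CPM in HFLF samples. These sums, to which Mki67 contributed most, overlapped between HF and LF samples in both batches. The median over the 20 genes, relative to the LF mean of the batch on the log2 scale, did not: it was −0.05, −0.24, 0.30 and 0.04 in LF, 0.55, 0.35 and 1.10 in HF and 0.64, 0.18, −0.05 and 0.08 in HFLF samples of batch 1, and 0.07, −0.06, −0.03 and 0.05 in LF, 0.14, 0.33 and 0.14 in HF and −0.09, −0.02, −0.23, −0.29 and 0.28 in HFLF samples of batch 2. Each HF sample was above each LF sample of its batch, and HFLF 1 of batch 1 and HFLF 5 of batch 2 lay within the HF range. Their part in the differences of the members was not tested.

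Immediate early genes moved the opposite way, with 17 of 20 lower (85%) and 0 higher and a median of −0.67, Fos being the most abundant. They summed to 7774, 8477, 8435 and 7510.0 CPM in LF, 5059, 5874 and 3778 CPM in HF and 5395, 7318, 6001 and 5587 CPM in HFLF samples of batch 1, and to 9072, 9428, 7966 and 8460.2 CPM in LF, 7413, 6067 and 5579.7 CPM in HF and 9114, 8402, 8837, 9085 and 7650.3 CPM in HFLF samples of batch 2. Each HF sample was below each LF sample of its batch, and so was each HFLF sample of batch 1. Whether this bears on the members was not tested.

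Of 7 fibroblast markers 1 fell (Pdgfra) and 0 rose, with a median of −0.72 and Col3a1 as the most abundant. Their sum was 16.6, 16.7, 28.1 and 16.2 CPM in LF, 21.9, 29.8 and 2.95 CPM in HF and 49, 53.8, 13.2 and 35 CPM in HFLF samples of batch 1, and 33.9, 20.1, 34.8 and 9.61 CPM in LF, 16.6, 4.40 and 11 CPM in HF and 23.8, 7.96, 7.26, 17.2 and 12.8 CPM in HFLF samples of batch 2. HF 3 of batch 1 and HF 2 of batch 2 were lowest of their batches. Counts of higher and lower markers were 0 and 0 of 8 for smooth muscle (median −1.31; Smtn most abundant), 0 and 1 of 3 for endothelium (Vwf, the most abundant), and 0 and 0 of 11 for leukocytes (Ptprc).

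Within the epithelium they were 1 (Smoc2) and 3 (Axin2, Rnf43 and Znrf3) of 13 for crypt base stem cells, where Slc12a2 was most abundant, and 2 (Cdh17 and Guca2b) and 1 (Slc26a2) of 12 for surface colonocytes, where Car1 was. They were 3 (Agr2, Spink4 and Tff3) and 0 of 8 for goblet cells (Muc2 most abundant), 3 (Gcg, Insl5 and Pyy) and 0 of 8 for enteroendocrine cells (Chgb), 1 (Gnat3) and 0 of 7 for tuft cells (Dclk1) and 0 and 0 of 8 for markers of all epithelium (Krt8). Summed goblet markers averaged 24121 CPM in LF and 21957 CPM in HF samples of batch 1, and 35861 and 31870 CPM in batch 2. These sums overlapped in batch 1, while in batch 2 each HF sample was below each LF sample. The median over the goblet markers, relative to the LF mean on the log2 scale, went the other way. It averaged 0.04 in LF and 0.13 in HF samples of batch 1, and −0.004 and 0.31 in batch 2. The lists called 0 by edgeR had 0 and 2 markers of smooth muscle, 0 and 2 of leukocytes and 1 and 0 of all epithelium, higher and lower, at an unadjusted p under 0.05. Over all genes these shares were 21.8% higher and 20.3% lower, so such small counts are not read as a result about these cells. The part of these cell types in the results was not tested.

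Levels between members were compared per kb of coding sequence in LF samples. This length leaves out untranslated parts, whose reads may be counted too. The level of a member with a short coding sequence, such as Nop10 (192 bases), may thus be too high, and the order depends on this measure. Npm1 was highest in both batches, at 233 ± 46.2 CPM per kb (SD, n = 4) in batch 1 and 249.98 ± 35.8 in batch 2. It was followed in batch 1 by Ncl at 91.4 ± 4.45 and Nop10 at 91.3 ± 16.8, which did not differ beyond their spread, and in batch 2 by Nop10 at 128 ± 7.98. The lowest were Polr1e at 5.73 ± 1.07 in batch 1 and Rrp12 at 6.01 ± 0.60 in batch 2, close to their neighbours in the order. The loci of 6 members (Ncl, Gnl3, Nop56, Nop58, Wdr43 and Tsr1) contain 12 annotated snoRNA loci, whose median counts were 5 to 44 per sample, and 3 members overlap another locus on the same strand (Ncl, Rcl1 and Ebna1bp2). Besides the members named above for it, Gnl3 overlaps Glt8d1, Tsr1 overlaps Srr, Bop1 overlaps Mroh1 and Scx, and Noc2l overlaps Samd11 on the opposite strand, so their counts too may hold reads of those neighbours.

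Promoters were read because the fold change for HF against LF was above 0 in each batch in 36 of 48 members. Myc binds the E-box CACGTG, as do other factors of its class. RefSeq promoters (GRCm38.p6) were matched for 42 of 48 members, which left out Myc, Npm1, Fbl, Gnl3l, Bop1 and Rrp12. The letters CACGTG, the same on both strands, were found from 250 bases before to 50 bases after the start in 8 of 42 (19.0%, Wilson 95% interval 9.98% to 33.3%), beside 11.4% of 10554 genes tested and 8.09% of all 27025 genes. For the 250 bases before the start alone it was 3 of 42 (7.14%), beside 9.57% and 6.86%. In Ltv1, Pes1, Mybbp1a, Tsr1 and Wdr43 the match lay within 50 bases after the start. The 3 members with a match before the start are shown as those 250 bases on the + strand, in lower case with CACGTG in capitals.
Rrn3, chr16:13780449-13780698: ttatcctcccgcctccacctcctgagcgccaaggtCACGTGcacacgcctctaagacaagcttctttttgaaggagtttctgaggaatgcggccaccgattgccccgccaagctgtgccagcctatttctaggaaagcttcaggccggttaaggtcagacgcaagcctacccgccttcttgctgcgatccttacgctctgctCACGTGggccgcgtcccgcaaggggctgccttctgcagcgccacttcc
Nop2, chr6:125131633-125131882: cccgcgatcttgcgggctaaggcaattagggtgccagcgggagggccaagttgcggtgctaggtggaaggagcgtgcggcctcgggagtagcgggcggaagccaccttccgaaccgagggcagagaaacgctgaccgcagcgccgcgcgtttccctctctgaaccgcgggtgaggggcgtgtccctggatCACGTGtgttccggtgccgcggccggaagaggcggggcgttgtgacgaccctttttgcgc
Imp4, chr1:34439579-34439828: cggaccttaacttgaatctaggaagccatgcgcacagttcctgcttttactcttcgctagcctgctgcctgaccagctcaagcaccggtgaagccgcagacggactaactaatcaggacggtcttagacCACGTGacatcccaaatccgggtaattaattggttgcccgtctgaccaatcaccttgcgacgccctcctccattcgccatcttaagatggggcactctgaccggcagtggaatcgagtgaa
Rrn3 has matches that begin 215 and 48 bases before the start, Nop2 60 bases before and Imp4 121 bases before. Over both batches their log2 fold changes for HF against LF were 0.22, 0.07 and 0.17. A match describes letters and shows no binding.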

How the data were processed

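Colonic epithelium RNA was made into stranded, rRNA-depleted libraries. Pairs of low base quality were removed by the authors before adaptor trimming (cutadapt 1.2.1), alignment by STAR 2.5 on mm10 and counting per gene by featureCounts 1.5.0-p1; the deposited values are raw counts per gene. Strand and multi-mapping settings are not given in the sources used here.

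From these counts, CPM and tests were computed with edgeR 4.0.16 in R 4.3.3: filterByExpr by diet, TMM, a quasi-likelihood F test with the 3 diets of a batch in 1 fit, or 23 samples with batch as a term, and Benjamini-Hochberg adjustment over all genes tested. The common biological coefficient of variation was 0.158 in batch 1 and 0.102 in batch 2. Code was tested on simulated counts. Alternatives were DESeq2 1.42.0, limma 3.58.1 (voom, with sample quality weights where no block is named), other scaling, filters and samples. Median shifts per sample used log2(CPM + 0.5).

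The members and lists were chosen with earlier results of these data known. Values per sample are given for Myc, Ncl, Npm1, Fbl, Polr1a, Polr1b, Rrn3 and Ubtf and, per role, the 3 members with the smallest p for HF against LF over both batches; Bysl and Nip7 were added after their values were seen. Of other lists, the 2 genes with the smallest p or the most abundant marker are named.

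Length was defined in 3 ways in turn, and the longest coding sequence was kept after the others were seen: rho for HF against LF over both batches was −0.389 for it, −0.248 for all exons merged and −0.245 for the principal transcript. Genes under 0.5 kb had medians of 0.22, −0.28 and −0.26 and genes over 3 kb −0.17, −0.06 and −0.07, so genes under 0.5 kb stood above those over 3 kb only by coding length, although rho was below 0 by each measure. Members above their class median were 45, 38 and 41 of 48.

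Same-numbered samples correlated above 0.1 in every pair only for HF with HFLF in batch 1 (0.147 to 0.610) and HF with LF in batch 2 (0.110 to 0.277), so the blocked value stands beside the latter. No libraries of a group were identical (lowest chi-square per gene 11.3).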

Additional observations from a re-analysis of the deposited data

Results flagged for a closer look

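Among 84 sets of values tested, from 21 members in the 4 groups of 4 or 5 samples, 2 had a sample far from the others, and chance gives about 1 in 20. Polr1a in HFLF 1 of batch 2 was at 46.2 CPM, where the next highest HFLF sample was at 42.2 CPM. Ubtf in HFLF 2 of batch 1 was at 171 CPM, where the next highest was at 137 CPM.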

How the results depend on the processing

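Each count of members called as higher is followed by the share of all genes called as higher in the same setting. For HF against LF in batch 1, DESeq2 called 3 (2.05%) and limma voom 8 (8.04%) where edgeR called 0 (0%), and leaving out 1 sample gave 0 to 5 (5.23%), the highest without HF 2. In batch 2 limma voom called 7 (5.87%) against 4 (3.03%), and leaving out 1 sample gave 0 to 9 (8.04%), the highest without LF 4. Over both batches 22 (15%) passed without the fold threshold against 10 (9%), and leaving out 1 sample gave 6 (5.97%) to 16 (10.6%). For HF against HFLF, 11 (8.53%) against 6 (5.61%) passed without the fold threshold in batch 2, and leaving out 1 sample gave 0 to 10 in both directions, the highest without HFLF 2 with 9 (9.41%) higher and Ncl lower, and a median log2 fold change of 0.11 to 0.18. Over both batches 20 (8.04%) passed without the fold threshold and limma voom called 5 (3.98%), against 10 (4.9%), and leaving out 1 sample gave 4 (1.88%) to 13 (8.64%). The cause of these changes was not tested. The share of promoters with CACGTG was 7.14% in the 250 bases before the start alone.

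With the replicate number as a block in edgeR, 4 (6.2%) were called for HF against LF in batch 2, 2 of them shared. For HF against HFLF it called 4 (8.74%) as higher, all shared, and 1 (Ncl) as lower, beside 10.8% of all genes lower, and in batch 1 it called 0 (0.208%) for HF against LF and 0 (0%) for HF against HFLF. limma voom with samples of the same diet and number in both batches as a block called 10 (9.18%) for HF against LF and 8 (5.55%) for HF against HFLF. Without the block, limma voom with sample quality weights called 8 (7.1%) and 5 (3.98%). These fits may differ in the weights as well as in the block. The correlation within blocks was −0.102. HFLF against LF kept 0 calls in every setting run.

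Alternatives chosen after the data were seen were removal of the length trend, leaving out each of 23 samples over both batches, and the low count filter. For HF against LF the filter by diet gave 10 (9%), by diet and batch 11 (9.4%) and by the design 11 (9.16%); the planned setting with no filter gave 12 (7.12%). Over 3196 values of single members under an alternative, 2995 kept their side of the threshold, 106 lost and 70 gained a call, 25 that passed no threshold in either setting changed sign, and no called value reversed. Depth did not limit detection of any member, whereas each difference that involves HF samples rests on 3 of them a batch.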
